A study of Mus musculus with 54 samples.

Results

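Cyp17a1, Cyp19a1, Hsd17b1, Por and Sult1e1, which act in the last steps of androgen and estrogen synthesis or in estrogen inactivation, were followed across the follicle wall, 5 of the 25149 genes in the deposited tables. The rule that chose them was their role in this pathway: the androgen-forming enzyme of theca cells, the 2 enzymes that granulosa cells use to make estradiol, the electron donor that both cytochrome P450 enzymes need, and an enzyme that inactivates estrogen. Secondary follicles from 14 to 16 day old CD-1 mice were grown in an alginate hydrogel for 8 days and then spent 12 h in maturation medium with FBS, EGF and recombinant FSH, with or without human chorionic gonadotropin (hCG), a stand-in for luteinizing hormone (LH) that triggers ovulation. Each follicle was then microdissected into the side that ruptures, or was predicted to, and the opposite side, and RNA of single sides was sequenced after Smart-Seq2 amplification. Without hCG there were 15 libraries of the putative unruptured side and 14 of the putative ruptured side, and post-hCG there were 12 of the unruptured side and 13 of the ruptured side. The sides were isolated from follicles grown outside the ovary, so stroma, blood vessels and surface epithelium of the ovary were not part of the model. Some marker RNA was still found. Summed endothelial markers had group medians from 1.08 to 3.515 TPM. Those of surface epithelium had group medians from 0.18 to 1.63 TPM and reached 36.45 TPM. Summed immune markers had medians of 31.88 TPM on the putative unruptured side and 2.965 TPM on the putative ruptured side. Post-hCG these were 12.685 TPM on the unruptured and 0.57 TPM on the ruptured side. In the labels the tissue is given as cumulus-oocyte complex, while the study's methods state that these complexes were discarded. Summed oocyte markers were near 0 in most libraries (group medians from 0 to 0.13 TPM), with one putative unruptured library at 153 TPM.

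In the follicle, steroid synthesis is divided between neighbouring cells. Theca cells outside the basement membrane turn progestins into androgens with CYP17A1, and granulosa cells inside it turn those androgens into estrogens with aromatase, the product of Cyp19a1, and with the hydroxysteroid dehydrogenase HSD17B1, which makes estradiol from estrone. Cytochrome P450 oxidoreductase, the product of Por, passes electrons from NADPH to CYP17A1 and aromatase as well as to other microsomal P450 enzymes, and estrogen sulfotransferase, the product of Sult1e1, attaches a sulfate that keeps estrogens from binding their receptors. In vivo the LH surge ends estrogen synthesis, and the remaining wall becomes a corpus luteum that makes progesterone.

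Levels are given in TPM, transcript abundances corrected for transcript length and scaled within each library, which can be compared between genes. Changes are log2 fold changes (log2FC) from edgeR's quasi-likelihood test on the counts, with standard errors (SE) and Benjamini-Hochberg false discovery rates (FDR) over all genes tested, and a gene was called at an FDR of at most 0.05. Total counts ran from 1497071 to 2834734 per library. The labels do not say which sides came from one follicle or animal, so p-values measure the spread between these libraries. The sample names carry well codes, whose letters differ between the libraries without hCG and post-hCG and in large part between the sides, so the position these codes give cannot be told apart from medium and side.

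The 5 genes took 4 different courses. Cyp17a1 was highest on the putative unruptured side and was lower post-hCG, where the ruptured side held no count of it. Cyp19a1 and Hsd17b1 were highest on the putative ruptured side and fell on both sides post-hCG, Cyp19a1 to a few counts per group. Sult1e1 did the reverse, with 7 counts in the 29 libraries without hCG and 254 in the 25 libraries post-hCG. Por was present in every library and was highest on the unruptured side post-hCG.

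**Figure D1:**
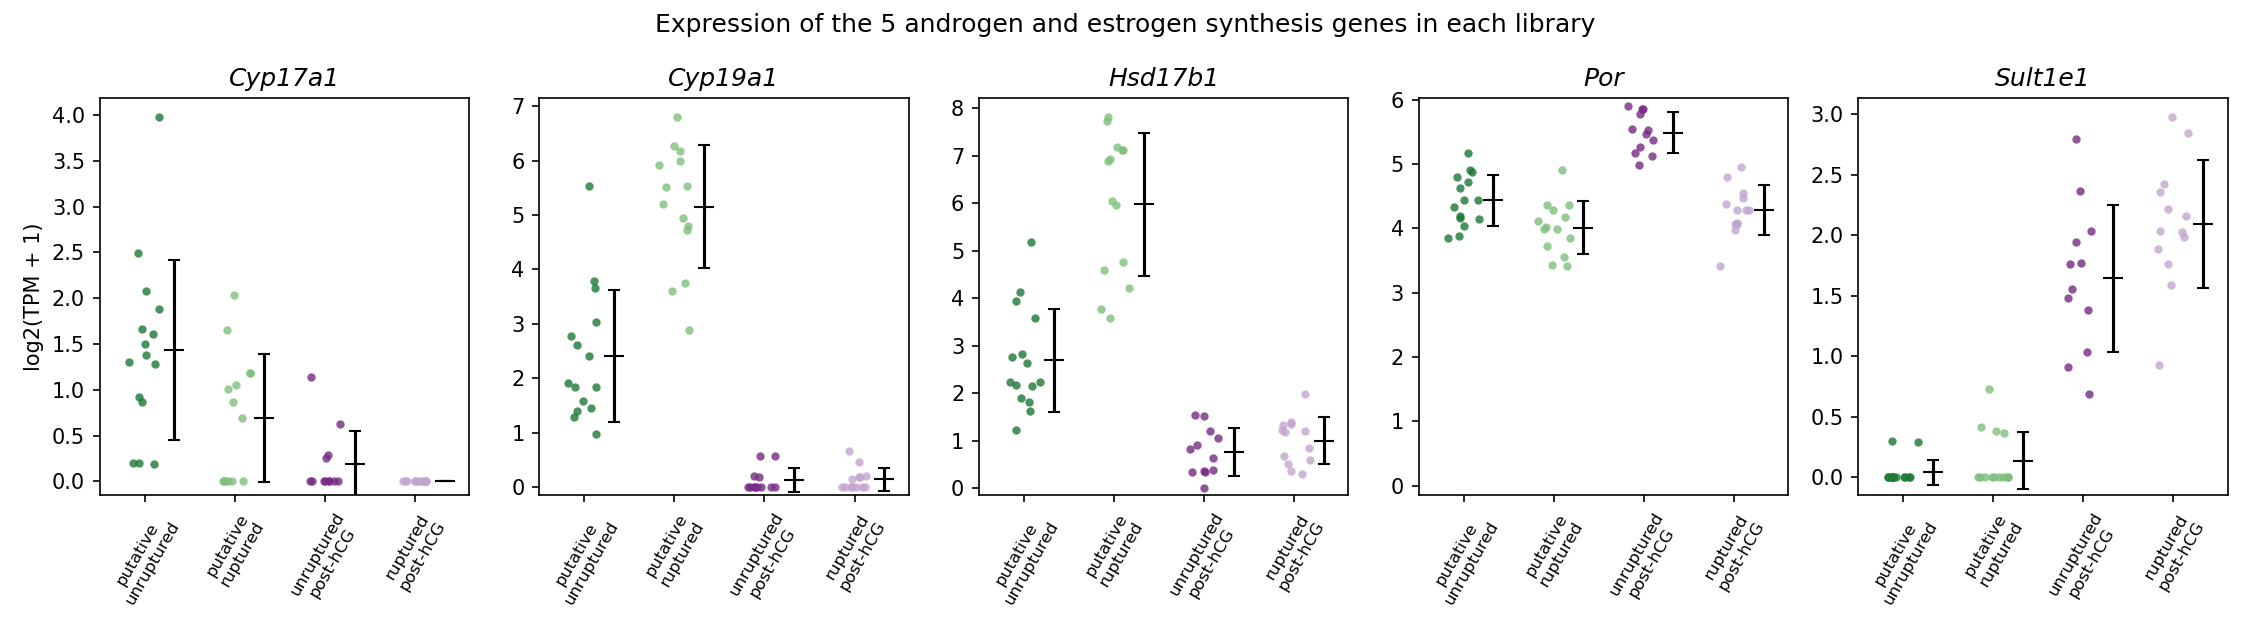
Each panel plots 1 gene as log2(TPM + 1) in every library (points) of the 4 groups, with the group mean and SD (bar) beside them. Cyp17a1 lies highest on the putative unruptured side, Cyp19a1 and Hsd17b1 on the putative ruptured side, Por on the unruptured side post-hCG, and Sult1e1 in both groups post-hCG.

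How many of the genes could be tested differed between comparisons. After edgeR's filter on low counts 3 of the 5 remained for the sides without hCG, 2 for the sides post-hCG, 3 for each comparison of the media and 4 for the interaction of side and medium. Cyp17a1 passed in none of them and Sult1e1 in the sides post-hCG and the interaction, so values for a gene below the filter come from the same test without a filter. In that test 4 of the 5 genes were called between the sides without hCG, where 8.49% of 20998 genes were called, and 3 of 5 between the sides post-hCG, where 10.8% of 20349 were. Between the media all 5 were called on both sides, against 29.5% of all genes in the unruptured and 33.7% in the ruptured comparison. Among the genes that passed the filter the called shares were 17.8%, 21.4%, 53.1% and 60.1% in the same order. The 5 genes were chosen with earlier results of these data known, so these shares are no test of them.

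Cyp17a1 (chr19:46667165-46673172, minus strand, GRCm38), whose enzyme makes androgens by hydroxylating progestins and cleaving their side chain, was the least abundant of the 3 synthesis enzymes without hCG. On the putative unruptured side it ranged from 0.14 to 14.8 TPM with a median of 1.61 TPM and had at least 1 count in each of the 15 libraries. On the putative ruptured side it ranged from 0 to 3.11 TPM with a median of 0.72 TPM, and 6 of 14 libraries held no count. The highest value, in replicate 8, came from 1 count, while 5 counts in replicate 12 gave 1.08 TPM. The groups overlapped, and 12 of 15 putative unruptured libraries lay above the median of the putative ruptured side. Cyp17a1 was lower in putative ruptured libraries (log2FC -2.48, SE 0.56, FDR = 0.00305), with 25 counts against 206, and without any single library the log2FC stayed between -2.71 and -2.05. Replicate 2 of the putative unruptured side held 28.6% of that group's counts, and limma on log2(TPM + 1) gave -0.74 with an FDR of 0.113. In RNA of whole sides, fewer theca cells and less Cyp17a1 RNA in each of them cannot be told apart.

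Post-hCG, Cyp17a1 was close to absent. The unruptured side ranged from 0 to 1.21 TPM with a median of 0, and its 6 counts lay in replicates 1, 6, 9 and 11 of 12. The 1.21 TPM of replicate 11 came from 1 count, while 3 counts in replicate 1 gave 0.55 TPM. The ruptured side had no count in any of 13 libraries, which allows up to 0.103 CPM (3 counts over the group). The ranges with and without hCG still overlapped at 0 on the ruptured side and near it on the unruptured side. The gene fell with hCG in unruptured libraries (log2FC -4.24, SE 0.69, FDR = 4.98e-06), a ratio of counts of 25.4 without hCG over post-hCG (exact 95% interval 11.5 to 70.0, which like all such intervals covers counting error only). Without replicate 1 of the unruptured side the log2FC was -4.88. On the ruptured side the test was passed as well (FDR = 0.000585). With the empty group set at 3 counts over the group, the level without hCG was 9.83-fold higher. That ratio leaves out the counting error of the group without hCG, so it is not a lower limit. Between the sides post-hCG the call rested on those 6 counts (FDR = 0.0403). With the empty group set at 3 counts in the same way, the unruptured side was 2.28-fold higher, again not a lower limit. The FDR rose above the threshold, at most to 0.173, in 11 of 25 refits without a library. The libraries left out in these were replicates 1, 6, 9 and 11 of the unruptured side and 1 to 6 and 11 of the ruptured side. The FDR was 0.302 when all 4 groups were fitted together.

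Theca markers other than Cyp17a1 shifted with side and medium too. The sum of 10 of them, mostly collagens and other matrix genes with Insl3 and Aldh1a1, had medians of 776 TPM on the putative unruptured side (131 to 2893), 61.8 TPM on the putative ruptured side (21.5 to 816), 365 TPM on the unruptured side post-hCG (85.6 to 1347) and 7.12 TPM on the ruptured side post-hCG (3.21 to 56.1). Of the 8 markers tested between the sides without hCG 6 were lower on the putative ruptured side, of the 6 tested post-hCG 5 were lower on the ruptured side, and none of those tested was higher. With hCG 6 of 8 tested fell on the unruptured side and 4 of 5 in ruptured libraries, and none rose. Gli1 was at 0 on the unruptured side post-hCG, and in each of the other 3 groups all 10 markers had a count. Insl3, a peptide hormone made by theca cells, had a median of 33.3 and a mean of 69.3 TPM on the putative unruptured side and a median of 40.3 and a mean of 35.7 TPM on the unruptured side post-hCG and was not called between them (log2FC -0.85, SE 0.53, FDR = 0.18). How far theca content carries the differences of Cyp17a1 was not tested. Within the putative ruptured side the 6 libraries without a count of Cyp17a1 had marker sums from 21.8 to 74.5 TPM, and the 8 with a count had sums from 21.5 to 816 TPM. In the unruptured side post-hCG, replicate 4 had the highest marker sum of its group, 1347 TPM, and no count of Cyp17a1, but its Insl3 was only 5.63 TPM. Replicates 1, 6, 9 and 11, which held the counts of Cyp17a1, had 72.6, 60.1, 30.2 and 55.3 TPM of Insl3. The 8 libraries without a count had from 1.02 to 76.1 TPM of Insl3.

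**Figure D2:**
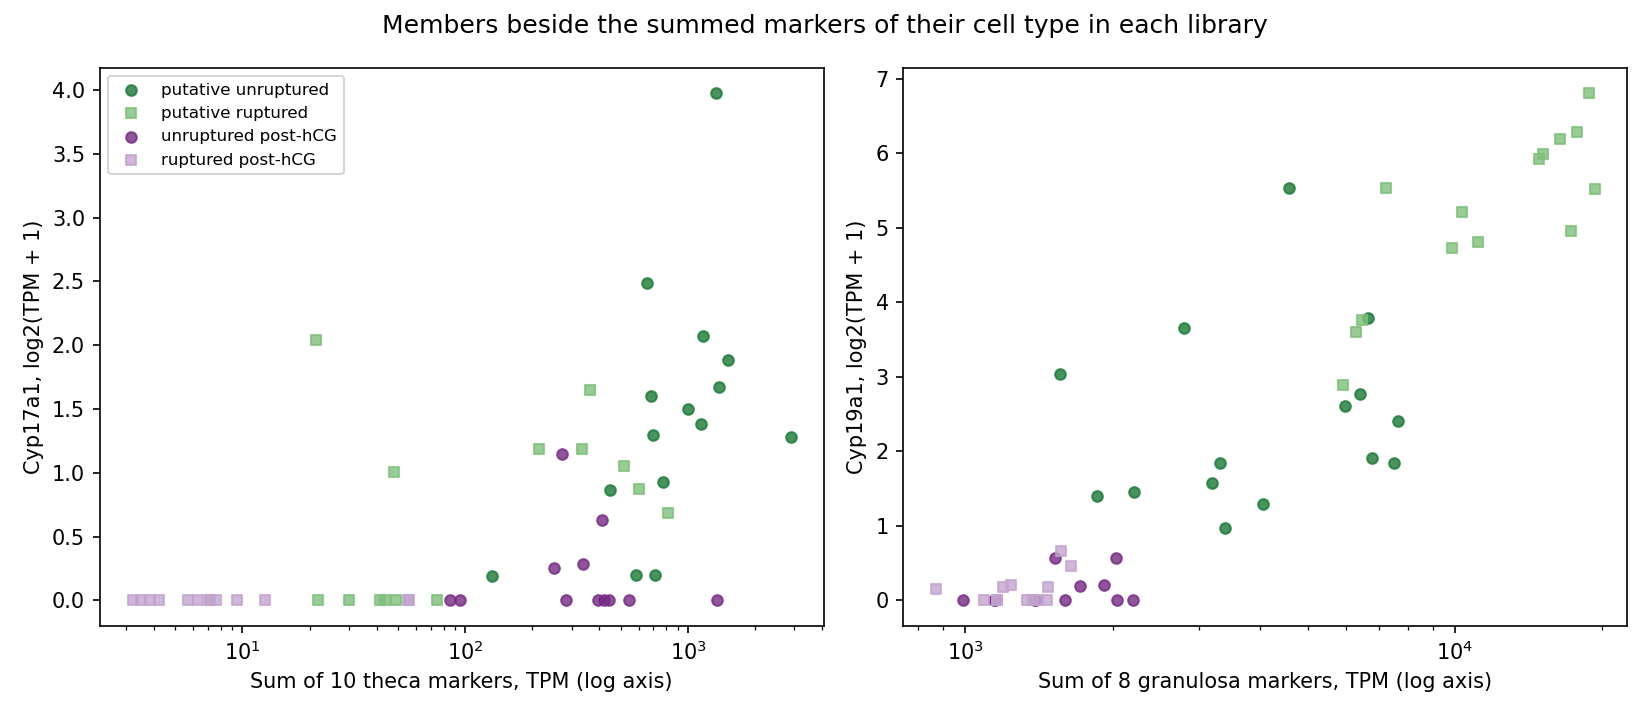
The left panel plots Cyp17a1, as log2(TPM + 1), against the summed TPM of 10 theca markers (log axis), and the right panel Cyp19a1 against the summed TPM of 8 granulosa markers (log axis), with 1 point per library. All 13 ruptured libraries post-hCG lie at 0 on the left, and both groups post-hCG lie below 1 on the right. There the sums of both groups post-hCG overlap those of the putative unruptured side and lie below those of all putative ruptured libraries. Inha and Gja1, most of the granulosa sum, fell with hCG themselves, so equal sums need not mean equal granulosa content.

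Cyp19a1 (chr9:54165937-54268110, minus strand, GRCm38), which encodes aromatase, is transcribed from several first exons that differ between tissues. Of its 3 start windows in RefSeq, 2 are shown, since the gene changed most of the 5 and a gene-level count does not tell which start was used. They cover the 250 bases before a start, read from the genome build GRCm38.p6 on the gene's strand, and the capitals mark matches to TATAAA on either strand, overlapping ones joined. Of 32851 such windows of RefSeq genes 12.4% held TATAAA. The first window (chr9:54228915-54229164) has a match on the sense strand 29 bases before the start, overlapped by an antisense match, and the second (chr9:54193744-54193993), the one nearest the coding exons, has 2 antisense matches 143 and 157 bases before its start. The motifs AAGGTCA, TGACGTCA and AGATAA, searched on both strands, were in none of the 3 windows, which says only that these letters are absent there.
Cyp19a1, start at the TATAAA window: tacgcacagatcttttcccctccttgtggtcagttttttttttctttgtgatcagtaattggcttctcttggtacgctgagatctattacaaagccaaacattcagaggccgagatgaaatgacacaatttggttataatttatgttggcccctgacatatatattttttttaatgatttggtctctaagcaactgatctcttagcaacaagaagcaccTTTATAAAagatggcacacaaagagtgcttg
Cyp19a1, start nearest the coding exons: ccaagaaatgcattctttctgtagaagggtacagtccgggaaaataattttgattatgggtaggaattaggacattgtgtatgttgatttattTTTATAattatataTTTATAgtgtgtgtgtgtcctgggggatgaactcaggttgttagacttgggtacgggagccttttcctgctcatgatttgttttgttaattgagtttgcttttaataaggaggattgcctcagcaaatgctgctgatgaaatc

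Without hCG, Cyp19a1 separated the sides more widely than Cyp17a1 and in the other direction. The putative unruptured libraries ranged from 0.96 to 45.3 TPM with a median of 2.75 TPM, and the putative ruptured ones from 6.42 to 111 TPM with a median of 40.5 TPM. All 14 putative ruptured libraries lay above the median of the other side, yet the ranges overlapped, with replicates 5, 9, 11 and 15 of the putative unruptured side (7.19, 45.3, 11.6 and 12.8 TPM) above the lowest putative ruptured library, and the ranges of only 0.0304% of 9875 genes did not overlap in this comparison. The 45.3 TPM of replicate 9 came from 74 counts, fewer than the 96 of replicate 11 and the 138 of replicate 15, so this TPM is high for its counts. Cyp19a1 was higher in putative ruptured libraries (log2FC 3.22, SE 0.38, FDR = 1.05e-06), with 4228 counts against 645, and the log2FC lay between 3.05 and 3.44 without any single library.

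Post-hCG, little aromatase RNA was left on either side. The unruptured side had 8 counts in 4 of 12 libraries (at most 0.48 TPM) and the ruptured side 11 counts in 6 of 13 libraries (at most 0.58 TPM). Neither group post-hCG overlapped its counterpart without hCG, as was the case for 5.08% of 9990 genes on the unruptured side and 7.04% of 9702 genes on the ruptured side. Cyp19a1 fell in both comparisons, with a log2FC of -5.47 (SE 0.61, FDR = 4.59e-09) for the unruptured side and of -8.29 (SE 0.51, FDR = 2.1e-15) for the ruptured side. The count ratios of no hCG over post-hCG were 59.7 (30.1 to 139) and 453 (253 to 909). Between the sides post-hCG no difference was detectable with 19 counts in all (log2FC 0.35, SE 0.70, FDR = 0.813), and the count ratio of 1.21 had an interval from 0.442 to 3.45.

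Hsd17b1 (chr11:101078411-101080527, plus strand, GRCm38), whose enzyme reduces estrone to estradiol, followed the course of Cyp19a1 at a higher level. Without hCG the putative unruptured libraries ranged from 1.33 to 35.6 TPM with a median of 3.72 TPM, and the putative ruptured ones from 11 to 226 TPM with a median of 91.5 TPM. The ranges overlapped, with 9 of 14 putative ruptured libraries above every putative unruptured one. The difference between the sides (log2FC 3.70, SE 0.49, FDR = 3.03e-06) was 4574 counts against 521, and replicate 15 of the putative unruptured side held 35.3% of the smaller sum.

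Post-hCG, Hsd17b1 kept a low level in nearly all libraries, unlike aromatase. It ranged from 0 to 1.90 TPM with a median of 0.665 TPM on the unruptured side, where 11 of 12 libraries had a count, and from 0.22 to 2.94 TPM with a median of 1.27 TPM on the ruptured side, where all 13 had one. The ruptured side no longer overlapped the putative ruptured side, and on the unruptured side 14 of 15 libraries without hCG lay above all 12 post-hCG. The gene fell with a log2FC of -3.32 (SE 0.54, FDR = 5.05e-06) for the unruptured side and of -6.27 (SE 0.53, FDR = 6.01e-12) for the ruptured side. The sides post-hCG were not called apart (log2FC 0.72, SE 0.41, FDR = 0.314; count ratio 1.51, interval 0.957 to 2.41).

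Granulosa markers differed between the groups as well, not always in the direction of these 2 genes. The sum of 8 markers, of which Inha and Gja1 made up most, had medians of 4065 TPM on the putative unruptured side (1565 to 7653), 13018 TPM on the putative ruptured side (5894 to 19273), 1563 TPM on the unruptured side post-hCG (989 to 2200) and 1337 TPM on the ruptured side post-hCG (874 to 1644). Of the 7 tested, 6 were higher on the putative ruptured side. With hCG 4 fell and 1 rose on the ruptured side, 4 fell and 3 rose (Fshr, Inhbb and Nr5a2) in unruptured libraries, and post-hCG 3 of 6 tested were higher on the ruptured side. Amh, a product of granulosa cells of smaller follicles, was at 0 on both the putative ruptured and the ruptured side. It was near 0 elsewhere too, with 6 counts each on the putative unruptured side and the unruptured side post-hCG, so its zeros show no difference between the sides. The part of granulosa content in the differences between the sides and in the falls with hCG was not tested. On the ruptured side the median marker sum was 13018 TPM without hCG and 1337 TPM post-hCG. The ratio of mean TPM, another measure, was 389 for Cyp19a1 and 84.8 for Hsd17b1. Inha (log2FC -2.88) and Gja1 (-4.55) fell with hCG there themselves, so the sum need not follow granulosa content.

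Without hCG, Cyp19a1 exceeded Cyp17a1 in most libraries of both sides, by a margin that differed between the sides. On the putative unruptured side Cyp19a1 minus Cyp17a1, on the log2(TPM + 1) scale, ranged from -1.21 to 3.46 with a median of 1.04, and 4 of 15 libraries had more Cyp17a1 than Cyp19a1. On the putative ruptured side it ranged from 1.95 to 6.81 with a median of 4.92 and was above 0 in all 14. Post-hCG the medians were 0 on both sides, with 4 libraries above and 3 below 0 of 12 on the unruptured side and 6 above and 0 below of 13 on the ruptured side. Without any count of Cyp17a1, no ruptured library post-hCG could lie below 0. The signs on the unruptured side rest on 8 counts of Cyp19a1 and 6 of Cyp17a1 over the group, so they give no order of the steps. Hsd17b1 minus Cyp19a1 had medians of 0.57 and 0.94 without hCG, on the putative unruptured and putative ruptured side, so the pair kept within a few-fold of each other while both spanned a wide range.

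Hsd17b1 exceeded Cyp19a1 in TPM in most libraries without hCG. The 4 exceptions, named after their values were seen, were replicate 5 (1.33 against 7.19 TPM of Cyp19a1), replicate 9 (16.5 against 45.3 TPM) and replicate 11 (2.50 against 11.6 TPM) of the putative unruptured side and replicate 4 of the putative ruptured side (12.7 against 45.3 TPM). Their granulosa marker sums were 1565, 4580, 2802 and 7238 TPM. Replicate 9 is a weak exception, since its 45.3 TPM of Cyp19a1 came from 74 counts and its 16.5 TPM of Hsd17b1 from 63. In replicate 11 the 11.6 TPM of Cyp19a1 came from 96 counts. Over the deviations from the group means in all 54 libraries, Cyp19a1 and Hsd17b1 had a correlation of 0.65, and no other pair of the 5 genes lay outside -0.16 to 0.16. Libraries of one group share handling and differ in depth and in the amount of each cell type, which such a correlation contains.

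**Figure D3:**
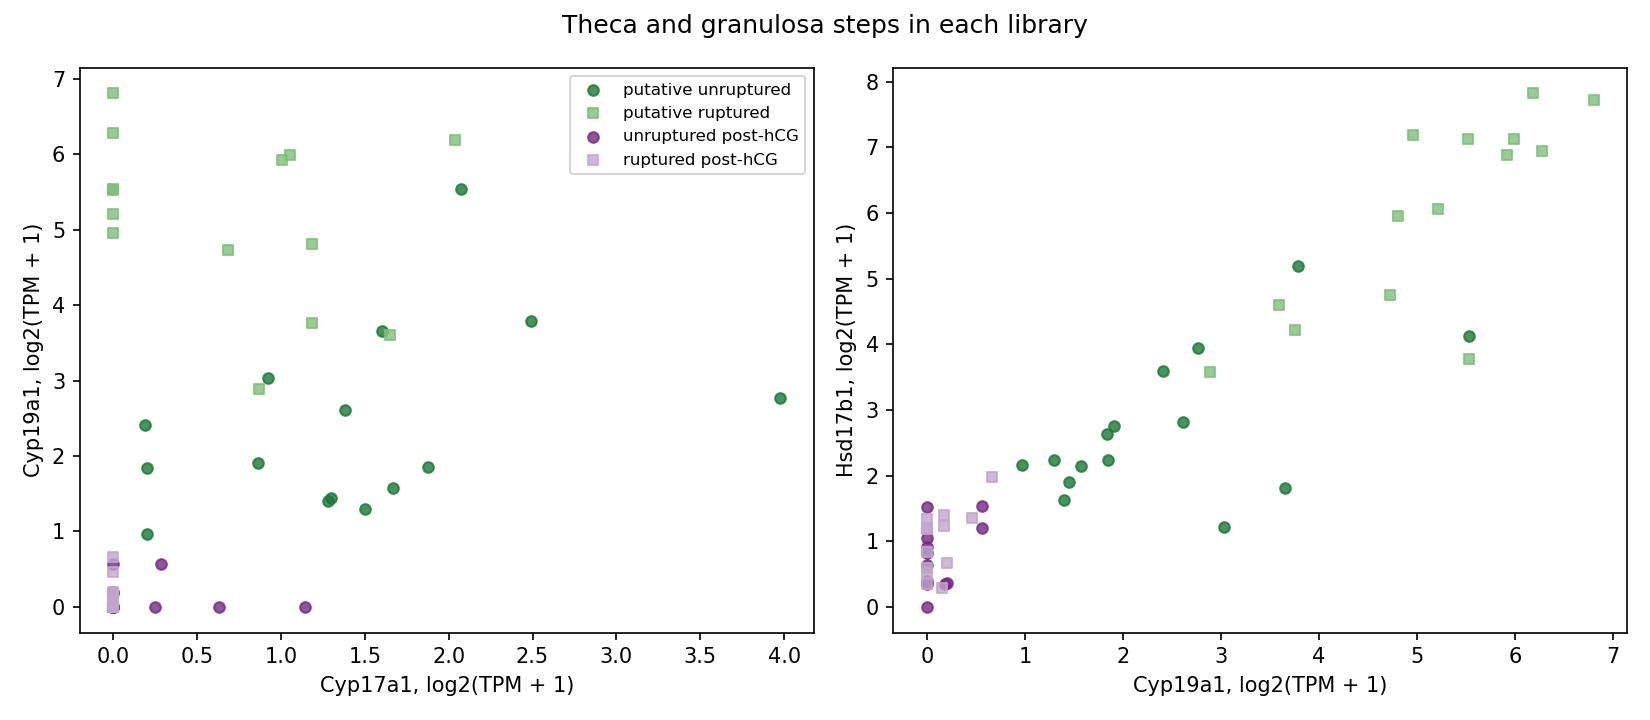
The left panel plots Cyp19a1 against Cyp17a1 and the right panel Hsd17b1 against Cyp19a1, both as log2(TPM + 1) with 1 point per library. The putative ruptured libraries rise along Cyp19a1 with little Cyp17a1, and the libraries without hCG line up along a diagonal on the right apart from 4 with less Hsd17b1 than Cyp19a1.

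Por (chr5:135670033-135735326, plus strand, GRCm38), the shared electron donor, was the one gene of the 5 with ample counts everywhere, from 75 to 479 per library. Its level was 13.4 to 34.8 TPM (median 20.6) on the putative unruptured side, 9.70 to 28.9 TPM (median 15.1) on the putative ruptured side, 30.5 to 58.7 TPM (median 44.2) on the unruptured side post-hCG and 9.67 to 29.8 TPM (median 18.6) on the ruptured side post-hCG. The sides overlapped without hCG and did not overlap post-hCG, where all 12 unruptured libraries lay above all 13 ruptured ones, as for 1.15% of 9624 genes. Its annotated span holds 2 antisense genes, a lincRNA and a pseudogene, and the library kit does not mark strand, so their reads cannot be told apart from those of Por.

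Por was lower on the ruptured side in both media, with a log2FC of -0.42 without hCG (SE 0.11, FDR = 0.00838) and of -0.96 post-hCG (SE 0.13, FDR = 1.96e-06), the first of which was not called by limma on log2(TPM + 1) (FDR = 0.0631) or log2(TPM + 0.1) (FDR = 0.0627). With hCG it rose in unruptured libraries (log2FC 1.06, SE 0.11, FDR = 1.94e-09). On the ruptured side the log2FC was 0.54 (SE 0.13, FDR = 0.000618), but this call depended on scaling: with library totals only, where the median of all genes tested was -0.33, it was 0.20 (FDR = 0.213), and with limma on log2(TPM + 1), where that median was -0.14, it was 0.27 (FDR = 0.156). The effect of hCG differed between the sides by -0.53 (SE 0.17, FDR = 0.0422 for the interaction), a difference that was not called without the filter (FDR = 0.0901) or in 23 of 54 refits that left out a library. The theca marker sum was lower on the ruptured side in both media, as was Por, and its part in the differences of Por was not tested.

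Sult1e1 (chr5:87575969-87591594, minus strand, GRCm38), the estrogen-inactivating enzyme, was nearly absent without hCG. Its RefSeq start window, shown because the gene moved opposite to Cyp19a1, covers the 250 bases before the start (chr5:87591612-87591861, GRCm38.p6, gene strand), and the capitals mark an antisense match to AAGGTCA, the core motif of NR5A receptors, 113 bases before the start. AAGGTCA was in 4.08% of the 32851 windows, and TATAAA, TGACGTCA (1.55%) and AGATAA (9.99%) had no match in this one.
Sult1e1, start: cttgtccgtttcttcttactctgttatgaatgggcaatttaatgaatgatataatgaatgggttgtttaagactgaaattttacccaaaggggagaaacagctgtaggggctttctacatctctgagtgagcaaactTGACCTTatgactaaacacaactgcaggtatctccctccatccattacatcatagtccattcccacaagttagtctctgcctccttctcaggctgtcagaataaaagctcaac

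Without hCG, Sult1e1 had 2 counts in 2 of 15 putative unruptured libraries and 5 counts in 4 of 14 putative ruptured ones, and the sides could not be told apart at this depth (log2FC 1.17, SE 0.61, FDR = 0.362; count ratio 3.49, interval 0.572 to 36.7). Post-hCG every library had at least 2 counts. The level ranged from 0.61 to 5.94 TPM with a median of 2.16 TPM on the unruptured side and from 0.90 to 6.88 TPM with a median of 3.09 TPM on the ruptured side. Neither group overlapped its counterpart without hCG, although on the ruptured side the margin was small, with 0.66 TPM at most without hCG and 0.90 TPM at least post-hCG. For the unruptured side Sult1e1 rose by a log2FC of 5.11 (SE 0.48, FDR = 3.54e-11), or 90 counts against 2, a ratio of 60.8 with an interval from 16.4 to 510. For the ruptured side it rose by 4.69 (SE 0.41, FDR = 2.69e-12), or 164 counts against 5, a ratio of 27.8 with an interval from 11.7 to 86.8.

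Between the sides post-hCG, Sult1e1 was higher in ruptured libraries (log2FC 0.80, SE 0.27, FDR = 0.0298), with overlapping ranges and 11 of 13 ruptured libraries above the median of the unruptured side. The call was lost with library totals only (log2FC 0.65, FDR = 0.0904), with limma on log2(TPM + 1) (log2FC 0.45, FDR = 0.134) and without replicate 4 or 11 of the ruptured side or replicate 5, 6, 9 or 12 of the unruptured side (highest FDR 0.0659).

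**Figure D4:**
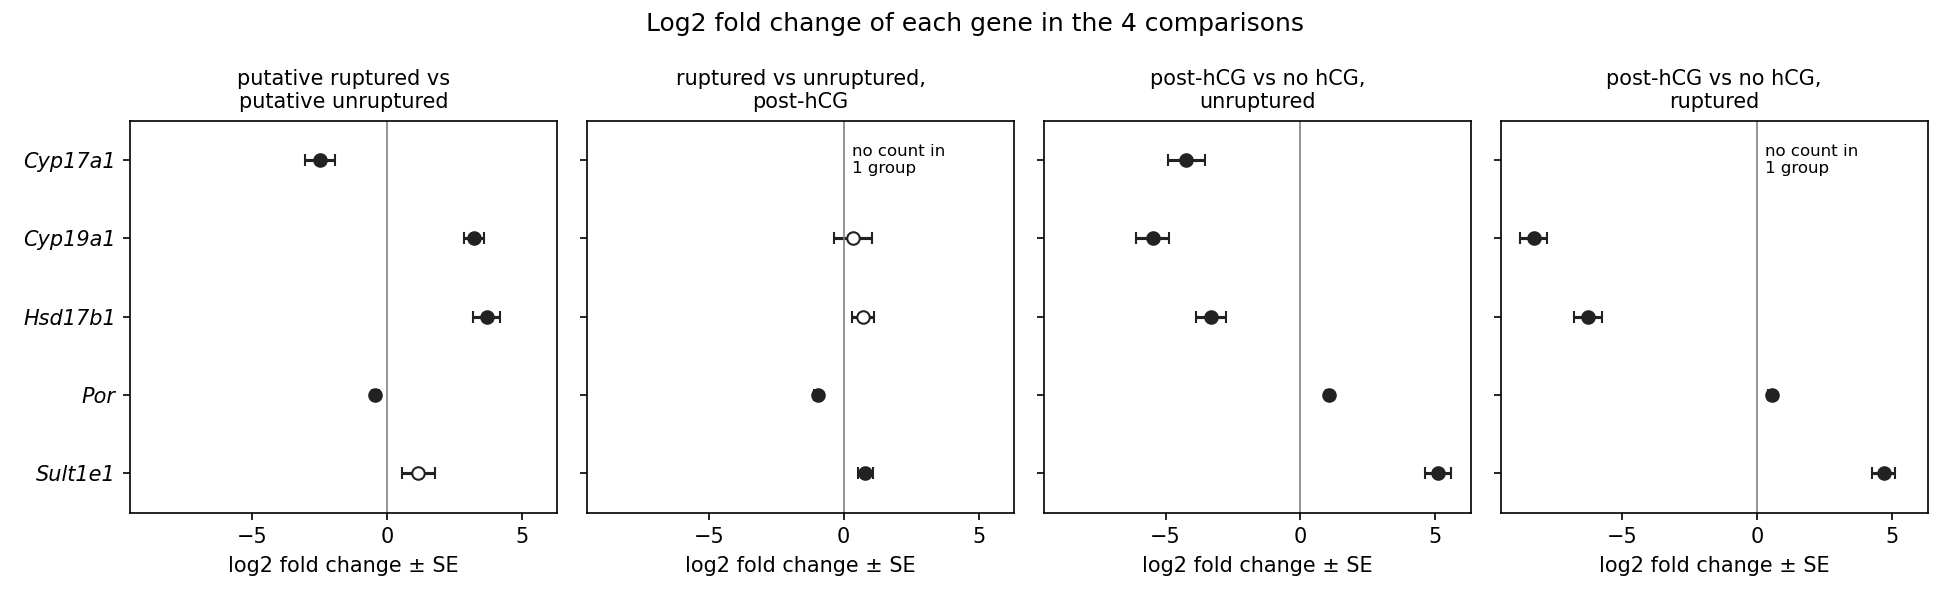
Each panel gives 1 comparison, with the log2 fold change of each gene and its SE as a bar, filled where the FDR was at most 0.05. Cyp17a1 and Por lie left of 0 and Cyp19a1 and Hsd17b1 right of it between the sides without hCG, and both comparisons of the media place Cyp19a1 and Hsd17b1 left and Sult1e1 right. Comparisons in which one group had no count of Cyp17a1 carry no point for it.

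The interaction asks whether the effect of hCG differed between the sides, and 8.91% of 10013 genes were called in it. For Cyp19a1 the effect of hCG on the ruptured side minus that on the unruptured side was -2.86 (SE 1.65, FDR = 0.306) and for Hsd17b1 it was -2.97 (SE 1.06, FDR = 0.0641) on the log2 scale. Both have few counts post-hCG, and both were called by DESeq2 (FDR = 0.026 for Cyp19a1 and 0.00167 for Hsd17b1). For Sult1e1 it was -0.35 (SE 0.39, FDR = 0.666), from -0.44 to 0.10 without single libraries, and for Cyp17a1 it is not given because 1 group had no count.

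When the 4 groups were ordered by mean log2(TPM + 1) and neighbours were tested in 1 fit of all groups, Cyp19a1 and Hsd17b1 had the same order: putative ruptured, putative unruptured, ruptured post-hCG, unruptured post-hCG. The first 2 steps differed for both genes (log2FC 3.22 and 5.09 for Cyp19a1, 3.69 and 2.59 for Hsd17b1, highest FDR 7.23e-05), and the last did not (FDR = 0.892 and 0.625). For Cyp17a1 only the step from the putative unruptured to the putative ruptured side was called (FDR = 0.000683), and the steps down to the unruptured (FDR = 0.129) and ruptured side post-hCG (FDR = 0.302) were not. For Sult1e1 the ruptured and unruptured side post-hCG differed (log2FC 0.81, FDR = 0.0225), as did the next step to the putative ruptured side (log2FC 3.91, FDR = 2.53e-11), but not the last (FDR = 0.263). For Por the unruptured side post-hCG came first (log2FC 1.07 over the putative unruptured side, FDR = 4.06e-11) and the putative ruptured side last, and the 2 groups between them did not differ (FDR = 0.397) and changed places on the log2 CPM scale.

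Other genes of sex steroid metabolism were counted from lists chosen by role, with earlier results of these data known. The lists held 55 genes besides the 5, of which Hsd17b8 and Sts matched no name in the tables and were not analysed here. Between the sides without hCG 8 were higher and 7 lower on the putative ruptured side of 34 tested, 44.1% called. Between the sides post-hCG 9 were higher and 6 lower on the ruptured side of 30 tested, 50% called. With hCG 17 rose and 11 fell of 34 on the unruptured side and 16 rose and 13 fell of 33 on the ruptured side, 82.4% and 87.9% called. Of all genes that passed the filter 17.8%, 21.4%, 53.1% and 60.1% were called in the same order. Because the lists were drawn up with results known, the shares describe the lists and test nothing. The median log2FC of these lists lay between 0.10 and 0.29 in the 4 comparisons against -0.03 to 0.01 for all genes tested.

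In precursor supply, Star, the cholesterol carrier, Cyp11a1, the side chain cleavage enzyme, and Hsd3b1, which completes progesterone, all rose with hCG on both sides, with log2FC of 2.83, 3.42 and 1.65 in unruptured and 3.95, 5.48 and 0.79 in ruptured libraries (highest FDR 0.0028). Without hCG, Star (log2FC -2.06) and Cyp11a1 (-1.70) were lower on the putative ruptured side like Cyp17a1, and Hsd3b1 (1.44) was higher there like Cyp19a1. Among the 7 tested redox partners, Fdx1 and Fdxr, which pass electrons to the mitochondrial P450 enzyme, rose most, Fdx1 from a mean of 444 to 6252 TPM on the unruptured side and from 460 to 7016 TPM on the ruptured side. Cyb5a, a cytochrome that favours the androgen-forming step of CYP17A1, was higher on the putative ruptured side (median 1197 against 405 TPM, log2FC 1.88, FDR = 1.6e-05), opposite to Cyp17a1 itself, and with hCG it fell on the ruptured side (log2FC -0.86, FDR = 0.0028) and was not called on the unruptured side (log2FC 0.24, FDR = 0.33).

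Of the other hydroxysteroid dehydrogenases, 4 of 9 with a row could be tested. Hsd17b7, which also reduces estrone and has a role in cholesterol synthesis, rose with hCG on both sides (log2FC 1.52, FDR = 9.2e-11, and 1.24, FDR = 9.3e-08), from a mean of 14.5 to 52.1 TPM on the unruptured side. Post-hCG it stood above Hsd17b1 in TPM. Without hCG its mean was above that of Hsd17b1 on the putative unruptured side (14.5 against 7.83 TPM) and below it on the putative ruptured side (21.1 against 94.0 TPM). Hsd17b10, a mitochondrial enzyme with broad substrates, fell on both sides (log2FC -0.92 and -1.59). Hsd17b2, which oxidises estradiol back to estrone, was at 0 in 3 of the 4 groups and had 1 count in the other, the ruptured side post-hCG.

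Of the 4 genes tested in the conjugation list none was called higher with hCG. Papss2, which makes the sulfate donor, fell on both sides (log2FC -1.10, FDR = 1.5e-05, and -1.69, FDR = 5e-08). Gusb fell on both sides too (log2FC -0.40, FDR = 0.0027, and -0.69, FDR = 3.9e-06), and Papss1 and Arsa fell on the ruptured side. Sult1a1, another sulfotransferase of the list, stayed below the filter. Its counts were 21 without hCG and 104 post-hCG on the unruptured side, and 5 and 119 on the ruptured side. Papss1, the other synthase of the sulfate donor, had a mean of 23.0 TPM on the unruptured side post-hCG. Among estrogen receptors Esr2, the main form of granulosa cells, was higher on the putative ruptured side (mean 30.3 against 11.2 TPM, log2FC 1.52, FDR = 0.0021) and fell with hCG on both sides (log2FC -4.31 and -5.24) to means under 1 TPM. Lhcgr, the receptor that hCG binds, rose on both sides, from a mean of 12.0 to 151 TPM on the unruptured and from 19.5 to 302 TPM on the ruptured side.

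Among 12 listed regulators of these genes, those that passed the test went both ways. Foxl2, Gata4 and Gata6, transcription factors of granulosa cells, fell with hCG on both sides (log2FC from -2.03 to -0.78), whereas Nr5a2, Runx1 and Runx2 rose on both (log2FC from 1.56 to 4.99), Runx2 from a mean of 12.2 to 495 TPM on the ruptured side. Nr5a1, the steroidogenic factor that binds AAGGTCA, rose on the ruptured side by 0.37 (FDR = 0.0022), a call that library totals removed (log2FC 0.05, FDR = 0.737). Of 92 calls of pathway genes over the 5 comparisons, library totals lost 8 and turned 2 around on the ruptured side, Pgrmc1 among them, neither called. Limma on log2(TPM + 1) lost 17 of the 92 and could not test 1.

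**Figure D5:**
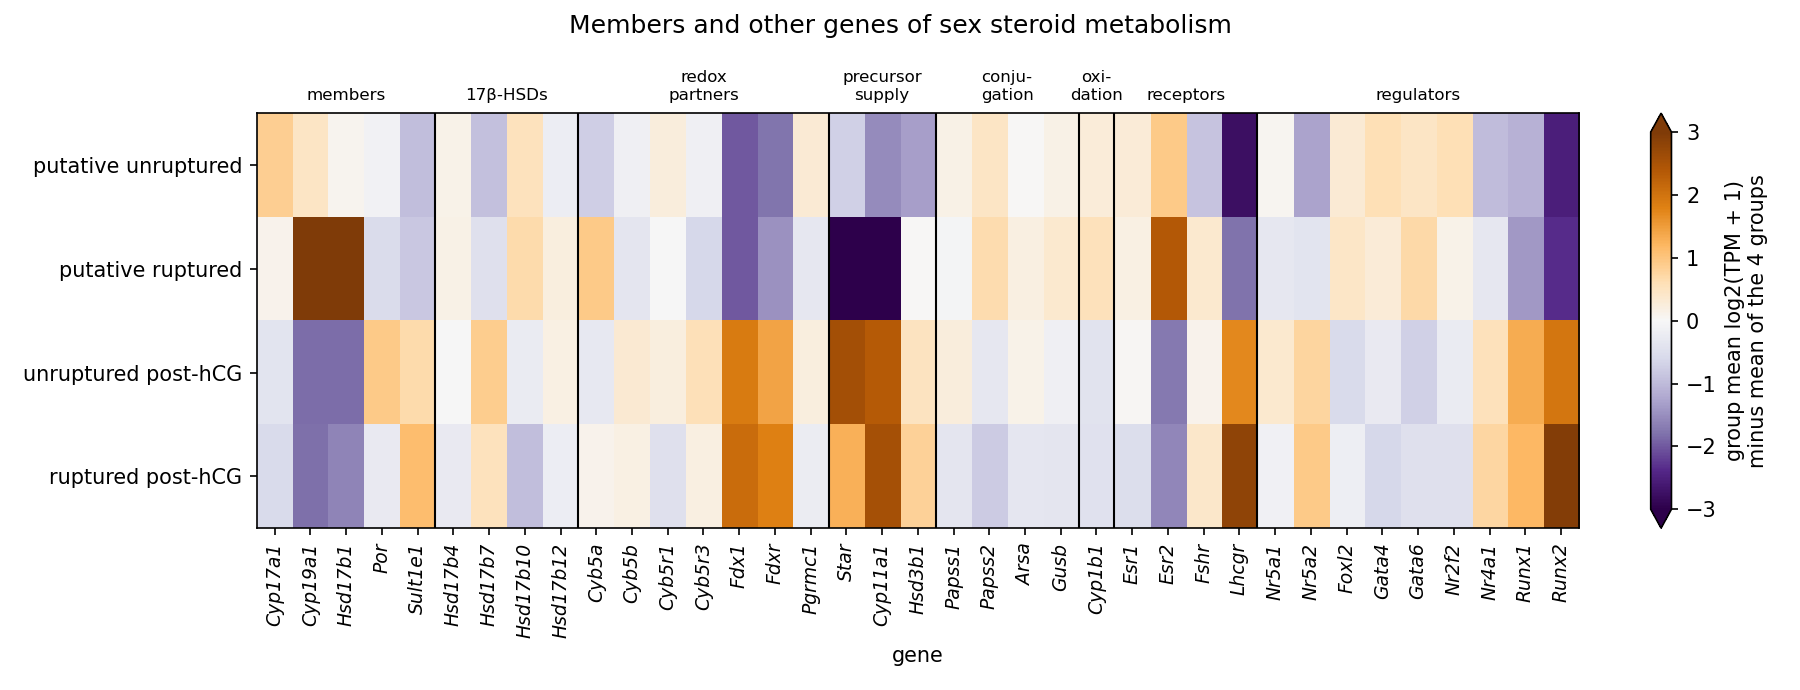
The map gives, for the 5 genes and for 32 pathway genes tested in at least 1 comparison, the group mean of log2(TPM + 1) minus the mean of the 4 groups (color, limited to 3 either way). Cyp19a1, Hsd17b1 and Esr2 are highest on the putative ruptured side, and Sult1e1, Fdx1, Fdxr, Star, Lhcgr and Runx2 are high in both groups post-hCG.

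For each of the 5 genes, the 3 genes whose log2(TPM + 1) deviated from the group means most alike over the 54 libraries were taken from the 9888 genes that averaged 1 TPM or more. For Hsd17b1 these were Inhba (r = 0.86), Chst8 (0.83) and Cyb5a (0.81), and for Cyp19a1 they were Nap1l5 (0.74), Inhba (0.69) and Hsd17b1 itself (0.65). Inhba, a subunit of activin and inhibin A, had a median of 1119 TPM on the putative ruptured side and 25.4 TPM on the putative unruptured side. For Por they were Wnt4 (0.73), Hspb8 (0.71) and Mvp (0.69), for Cyp17a1 Agt (0.63), Osr2 (0.59) and Fads2 (0.59), and for Sult1e1 Samhd1 (0.56), Orc6 (0.52) and Pomgnt1 (0.52). These values are descriptions over libraries that share their depth and cell makeup, and those of Cyp17a1 and Sult1e1 rest on few counts per library.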

How the data were processed

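The authors sequenced Smart-Seq2 cDNA of single follicle sides, mapped the reads to GRCm38 by HISAT2 and corrected batches with ComBat-seq. They deposited estimated counts, fractions included, and TPM, which the authors scaled by transcript length and library. The counting program, and whether either table precedes the correction, are not given in the sources used here. Rounded counts passed edgeR's filter (at least 10 in a library as it defines this, at least 15 in all) and TMM scaling, and edgeR 4.0.16 (R 4.3.3) gave two-sided quasi-likelihood F-tests, where SE is the size of the log2FC over the root of F. Genes below the filter were tested without it. Named were mainly the 5 genes, called genes of the pathway lists and the 3 genes most alike to each. Members and lists were chosen with earlier results of these data known. Alternatives were DESeq2 1.42.0, limma 3.58.1 on log2(TPM + 1) and log2(TPM + 0.1), other scalings and filters, thinned counts, a replicate block and refits without each library. Python 3.11.15 did the rest, with positions from GENCODE and start windows from RefSeq. Values of some pathway genes are not reported here.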

Additional observations from a re-analysis of the deposited data

Results flagged for a closer look

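One result met a rule for a closer look: the effect of hCG on Por differed between the sides in the test of that difference. The log2FC of post-hCG over no hCG on the ruptured side minus that on the unruptured side was -0.529 (SE 0.17, FDR = 0.0422), from a mean of 15.7 to 19.0 TPM on the ruptured side and from 21.4 to 44.8 TPM on the unruptured side. The FDR lay between 0.0232 and 0.0712 in the refits that left out a library, and the log2FC between -0.582 and -0.462.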

How the results depend on the processing

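Every alternative run kept the direction of the changes with hCG in Cyp17a1, Cyp19a1, Hsd17b1, Sult1e1 and, on the unruptured side, Por, and all of these stayed called, as did the sides without hCG for Cyp19a1 and Hsd17b1 and the sides post-hCG for Por. The values that crossed the threshold or turned are log2FC, and the cause was not tested. With limma on log2(TPM + 1) and log2(TPM + 0.1), Cyp17a1 between the sides without hCG was -0.7446 and -1.731 and Por -0.4255 and -0.4482, Por with hCG on the ruptured side 0.2662 and 0.2813, and Sult1e1 between the sides post-hCG 0.4479 and 0.6328, none called. The same pair of settings called the interaction for Cyp19a1 (-2.736 and -2.953) and Hsd17b1 (-3.055 and -2.961), turned that of Sult1e1 to 0.3521 and 0.2171, neither called, and called 1054 and 1051 genes between the sides without hCG in place of 1613. DESeq2 called the interaction for Cyp19a1 (-2.817) and Hsd17b1 (-2.958), and library totals only called it for Hsd17b1 (-3.007) and lost Por on the ruptured side (0.2015) and Sult1e1 between the sides post-hCG (0.6451). Thinned counts lost Cyp17a1 (-1.819) and Sult1e1 (0.6039, without a filter) between the sides post-hCG and the interaction of Por (-0.4994), which was also lost without a filter (-0.5155). All groups in one fit lost Cyp17a1 between the sides post-hCG (-2.356). The replicate block lost Cyp17a1 between the sides post-hCG (-2.111, adjusted p = 0.406) and the interaction of Por (-0.4738) and called that of Hsd17b1 (-3.157). Replicate numbers are not stated to pair libraries, and same-numbered libraries had median correlations of deviations between -0.1 and 0.0533, so the block is given only here. On the log2 CPM scale 2 of the 4 groups of Por kept their place.

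Without single libraries the log2FC between the sides post-hCG ran from -2.382 to -1.672 for Cyp17a1, from 0.6853 to 0.9906 for Sult1e1 and from -0.1243 to 0.8372 for Cyp19a1, which turned only without replicate 11 of the ruptured side. The interaction ran from -3.444 to -2.772 for Hsd17b1, called without replicate 15 of the putative unruptured side or 1, 4 or 10 of the putative ruptured side, from -0.4382 to 0.1038 for Sult1e1, positive without replicate 11 of the putative ruptured side and tested in 31 of 54 refits, and from -0.5823 to -0.4619 for Por. The interaction of Por was lost without replicate 3, 8, 10, 12, 13, 14 or 15 of the putative unruptured, 1, 2, 4, 9 or 12 of the putative ruptured, 4, 5, 7 or 11 of the unruptured or 1, 2, 4, 8, 10, 12 or 13 of the ruptured side.

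Library totals only changed the split of higher against lower calls over all genes from 801 against 812 to 585 against 905 for the sides without hCG, from 862 against 971 to 397 against 1830 for the sides post-hCG, from 2365 against 2582 to 1455 against 3844 and from 2532 against 2597 to 1376 against 4242 for hCG on the unruptured and ruptured side, and from 426 against 466 to 230 against 660 for the interaction. With limma on log2(TPM + 1) the splits were 456 against 598, 214 against 2166, 2207 against 1623, 1568 against 3005 and 85 against 679.

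Depth limits Cyp17a1 and Cyp19a1 post-hCG and Sult1e1 without hCG, where groups held 0 to 11 counts, so the intervals of differences between the sides there are wide. The 3 genes most like each member changed with the measure, and 0 to 2 of 3 were shared when group means were kept or Spearman's rho was used.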
